A study of Mus musculus with 8 samples.

Results

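Open-chromatin sites found in both mK3 and mK4, established lines from the mouse kidney, are described here with the strength of each site in each line. The sites come from ATAC-seq, in which a transposase cuts accessible DNA and inserts sequencing adapters there, so that places with many cut fragments stand out as peaks. A member is an mK3 peak that shares at least 1 base with an mK4 peak, paired with the mK4 peak of largest overlap, on chromosomes 1 to 19 other than 3, 7, 14 and 15. Of 17257 mK3 peaks on these 15 chromosomes, 12469 (72.3%) formed such a pair, out of 22516 mK3 peaks in all. Seen from mK4, 12562 of 25805 peaks (48.7%) shared a base with an mK3 peak, and 12234 of them served as partners. Most pairs were simple: 12130 mK3 peaks touched 1 mK4 peak, 337 touched 2 and 2 touched 3. The members were chosen by the overlap of the peak lists, and the comparison the rule names is the strength in column 7 of those lists, so both are given as descriptions with no test.

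Both lines descend from the metanephric mesenchyme, the embryonic tissue whose progenitors build the nephrons. Per the labels, mK3 stands for the uninduced mesenchyme and mK4 for mesenchyme that has moved towards epithelium. Both are wild type, received no treatment and grew in DMEM with 10% fetal bovine serum. Each line is 1 established line, and the ATAC-seq is 1 library a line, so no value of a pair has a replicate and no p-value is given for it. RNA was sequenced from 3 libraries a line after removal of ribosomal RNA, at 137559391 to 152952351 counts a library. Whether these came from separate cultures is not in the labels, so RNA p-values reflect how these libraries spread, possibly for technical reasons only.

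As background, DNA in nuclei is wrapped on nucleosomes, and regulatory DNA opens where transcription factors and the transcription machinery displace them. Promoters of genes used by most cells tend to be open in every cell type, while sites far from promoters, such as enhancers, differ more between cell types. In the developing kidney, progenitors that leave the mesenchymal state gain epithelial junctions and lose matrix and stromal gene activity.

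The RNA matched the labels only in part. The 10 epithelial marker genes summed to 0.831 to 1.54 CPM (TMM-scaled counts relative to library size) in mK3 and 121 to 141 CPM in mK4, yet Epcam, Krt18, Cldn3 and Cldn4 were at 0 in mK4. Only 2 of the 10 reached a mean of 1 CPM in mK4, and Cdh16 (below) made up most of the sum there. Of 10 genes of the metanephric mesenchyme, Sall1, Pax2, Wt1 and Meox1 were at 0 in mK3 and Six2 in mK4, with sums of 33.5 to 36.2 CPM in mK3 and 215 to 289 CPM in mK4. Fibroblast and stromal markers summed to 3060 to 3855 CPM in mK3 and 379 to 391.9 CPM in mK4. Of markers of other cells, leukocyte genes summed to 0.859 to 4.17 CPM in mK3 and 2.26 to 3.68 CPM in mK4, endothelial genes to 3.94 to 5.64 and 7.79 to 12.6 CPM, and neural genes to 56.6 to 67.5 and 41.1 to 49.0 CPM. In each line 2 of the 8 neural genes reached a mean of 1 CPM. Tubb3 alone had means of 27.0 CPM in mK3 and 41.2 CPM in mK4, higher in mK4 while the neural sum was lower. The part of such other cells in the results was not tested.

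Promoter DNA of 6 genes shows what kinds of shared site the results turn on. The 6 were picked after their values were seen. Each line gives the 250 bases before the RefSeq start of the gene (GRCm38.p6, which is mm10), 5′ to 3′ on the gene's own strand, in lower case. Capitals mark matches, on either strand, to 6 motifs. The CCAAT box was searched by those letters. The GC box was searched as GGGCGG. For ETS factors the letters were CCGGAAG. For AP-1 the letters were TGANTCA. The TATA box was searched as TATAAA. For TEAD factors the letters were GGAATG. Matches that touch run together. A match that overlaps an earlier match of the same letters is neither marked nor counted. The first pair of genes had some of the strongest peaks in both lines: Hmgcs1 (chr13:119690101-119690350, plus strand), which encodes an early enzyme of cholesterol synthesis, and Sel1l (chr12:91849158-91849407, minus strand), which encodes an adaptor of the endoplasmic reticulum's protein disposal machinery.
Hmgcs1: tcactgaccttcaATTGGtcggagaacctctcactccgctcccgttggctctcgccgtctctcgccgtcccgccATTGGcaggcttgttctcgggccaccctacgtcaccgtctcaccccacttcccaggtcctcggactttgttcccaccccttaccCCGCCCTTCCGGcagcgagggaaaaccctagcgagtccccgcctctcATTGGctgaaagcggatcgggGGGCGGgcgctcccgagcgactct
Sel1l: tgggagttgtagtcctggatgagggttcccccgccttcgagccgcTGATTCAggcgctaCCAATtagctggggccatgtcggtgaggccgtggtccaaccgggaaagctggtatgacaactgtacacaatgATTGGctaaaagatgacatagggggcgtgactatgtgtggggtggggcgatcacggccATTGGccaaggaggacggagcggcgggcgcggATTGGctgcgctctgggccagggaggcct
The next pair had peaks over 2-fold apart after centring and RNA that moved the same way: Baiap2l1 (chr5:144358113-144358362, minus strand), which encodes an adaptor that links the plasma membrane to actin, and Serpinb8 (chr1:107589756-107590005, plus strand), which encodes a protease inhibitor.
Baiap2l1: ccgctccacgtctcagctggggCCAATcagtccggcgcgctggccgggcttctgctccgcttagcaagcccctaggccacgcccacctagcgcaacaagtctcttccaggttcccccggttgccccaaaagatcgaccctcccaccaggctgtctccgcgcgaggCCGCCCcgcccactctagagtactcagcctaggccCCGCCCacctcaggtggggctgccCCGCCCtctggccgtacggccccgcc
Serpinb8: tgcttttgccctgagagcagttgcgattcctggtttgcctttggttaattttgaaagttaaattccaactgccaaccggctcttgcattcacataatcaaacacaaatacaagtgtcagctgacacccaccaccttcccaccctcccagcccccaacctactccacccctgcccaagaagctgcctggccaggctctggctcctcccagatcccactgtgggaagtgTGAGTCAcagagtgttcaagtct
The last pair had nearly equal peaks in the lines with RNA over 10-fold apart: Vgll3 (chr16:65814939-65815188, plus strand), which encodes a cofactor of TEAD transcription factors, and Mylip (chr13:45389492-45389741, plus strand), which encodes a ubiquitin ligase that degrades the LDL receptor.
Vgll3: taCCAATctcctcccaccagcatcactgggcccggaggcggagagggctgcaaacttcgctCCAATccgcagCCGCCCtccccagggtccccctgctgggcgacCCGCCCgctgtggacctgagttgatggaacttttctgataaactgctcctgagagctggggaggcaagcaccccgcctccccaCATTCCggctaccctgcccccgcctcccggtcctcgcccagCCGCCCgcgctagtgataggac
Mylip: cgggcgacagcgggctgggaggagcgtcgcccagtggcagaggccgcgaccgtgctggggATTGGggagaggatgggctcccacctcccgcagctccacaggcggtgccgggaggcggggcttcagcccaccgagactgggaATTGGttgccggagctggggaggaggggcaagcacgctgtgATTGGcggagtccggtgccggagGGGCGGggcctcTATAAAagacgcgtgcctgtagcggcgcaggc
These promoters differ in composition. Hmgcs1 holds 23 CpG dinucleotides with 3 CCAAT boxes and 2 GC boxes, Sel1l 16 with 4 CCAAT boxes and 1 AP-1 match, Baiap2l1 21 with 1 CCAAT box and 3 GC boxes, and Mylip 23 with 3 CCAAT boxes, 1 GC box and a TATA box. In Baiap2l1 a further match to the GC box overlaps the first of the 3 marked ones. Vgll3 holds 16 CpG with 2 CCAAT boxes, 3 GC boxes and 1 TEAD match. Serpinb8 stands apart among the 6, with 2 CpG, 52.0% G+C and a single AP-1 match. Peak summits, the tallest point of each peak, lay inside the printed window in both lines for 5 of the promoters (Hmgcs1 200 and 197 bases before the start in mK3 and mK4, Sel1l 82 and 93, Baiap2l1 136 and 190, Vgll3 72 and 79, Mylip 123 and 102), and at Serpinb8 3 bases before the start in mK3 and 3 after it in mK4. A match of letters is a description of the promoter and does not show that a factor was bound.

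Peaks that were strong in one line were mostly present in the other. With the mK3 peaks split into 10 equal parts by strength, 39.2% of the weakest part had an mK4 partner and 96.2% of the strongest part had one. The same shares for mK4 peaks were 17.5% and 89.5%. The mK4 list is longer, and the part of list length in these shares was not tested. Pairs near the limit of the rule were few and weak. Only 9 pairs shared 1 to 10 bases, with a median fold enrichment (peak height over local background, the authors' column 7) of 3.74 in mK3 and 3.45 in mK4, while the 11259 pairs that shared over 200 bases had 4.83 and 6.30. Just outside the rule, 21 mK3 peaks missed an mK4 peak by 1 to 50 bases, with medians of 2.99 for the mK3 peak and 3.81 for that mK4 peak.

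**Figure D1:**
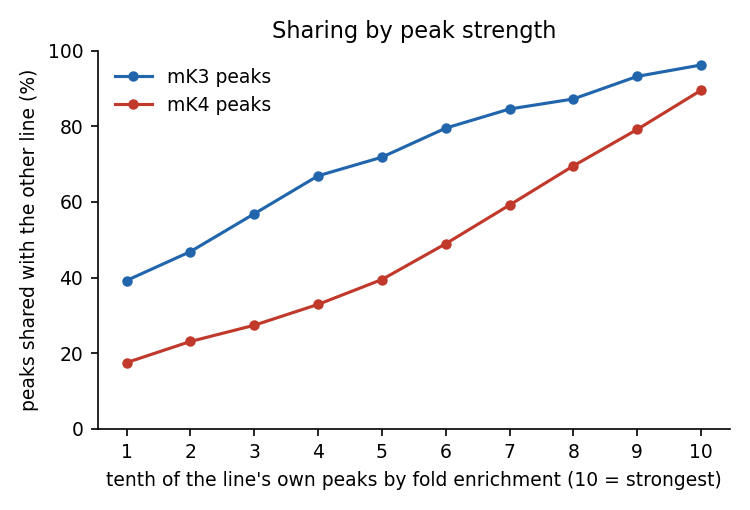
Share of peaks (vertical axis, percent) that overlap a peak of the other line, with the line's own peaks in 10 equal parts by fold enrichment (horizontal axis, 10 the strongest), for mK3 (blue) and mK4 (red). Sharing goes up with strength in both lines, from 39.2% to 96.2% in mK3 and from 17.5% to 89.5% in mK4.

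Shared sites sat mostly at gene starts. Of the 12469 pairs, 6678 (53.6%) lay within 1 kb of a gene start, 2326 (18.7%) between 1 and 10 kb away and 3465 (27.8%) over 10 kb away. For genes that the RefSeq promoter table lacks, both gene ends counted as starts. The same shares are not given here for peaks listed in 1 line only, so these are no trait of shared sites alone. The partners matched closely in place: the median distance between the summits of a pair was 31 bases, against median widths of 398 bases in mK3 and 473 bases in mK4. Genes with a shared pair at the start were mostly detected in RNA. Of 6186 protein-coding genes in the RNA table with such a pair 98.8% passed the filter on low counts, against 35.4% of 7620 with no listed peak at the start. With only an mK4-only peak at the start the share was 91.6% of 1172, and with only an mK3-only peak 93.0% of 558.

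Among start pairs of genes other than predicted ones, the 5 with the highest fold enrichment in their weaker line were those of Hmgcs1, Sel1l, Rrbp1, Zfp960 and Cggbp1. Hmgcs1 had a fold enrichment of 14.4 in mK3 and 14.5 in mK4, from 180 and 177 tags stacked at the summit, Sel1l had 13.8 and 15.8 from 148 and 126 tags, and Rrbp1, which encodes a ribosome receptor of the endoplasmic reticulum, had 13.6 and 13.8 from 153 and 135 tags. Zfp960, a zinc finger gene, had 14.5 and 15.3, and Cggbp1, which encodes a protein that binds CGG repeats, had 14.4 and 15.3. The pair named for Cggbp1 also covers a listed start of Zfp654. After centring on the median pair (below), the mK4 over mK3 ratio of tags was 0.892 for Hmgcs1 with a 95% counting interval of 0.721 to 1.10, and the intervals for Rrbp1, Zfp960 and Cggbp1 also reached across 1. Sel1l, at 0.772 with an interval of 0.604 to 0.986, was the exception. Of the start pairs nearest to a predicted gene, 4 outranked Rrbp1: one next to Gm10222 described below, one next to Gm5165 (16.4 and 23.1, 125 and 147 tags), one next to Gm15564 (20.4 and 14.6, 221 and 138 tags) and one next to Gm14325 (13.6 and 15.8, 92 and 86 tags).

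RNA of these genes differed in direction from gene to gene. Hmgcs1 was at 144, 164 and 151 CPM in the mK3 libraries and at 286, 292 and 279 CPM in the mK4 libraries. The groups did not overlap, and the gene rose (log2 fold change 0.90 ± 0.07 SE, edgeR quasi-likelihood test, Benjamini-Hochberg adjusted p = 0.000194). Rrbp1 was at 139, 123 and 112 CPM in mK3 and 69.7, 66.1 and 67.5 CPM in mK4, and it fell (-0.88 ± 0.10 SE, adjusted p = 0.000769). Sel1l ranged from 78.3 to 113 CPM in mK3 and from 81.1 to 131 CPM in mK4 and did not pass the test (adjusted p = 0.507), and neither did Zfp960 (adjusted p = 0.908) or Cggbp1 (adjusted p = 0.101). In bulk RNA of a line, fewer cells expressing a gene and less RNA per cell cannot be told apart.

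The pair highest in its weaker line lay away from gene starts. It spans chr16:57391366-57391771, inside the spans of Cmss1 and Filip1l and 33631 bases from the nearest listed start, with a fold enrichment of 33.5 in mK3 and 30.7 in mK4. The second, chr1:24612568-24613276 next to the predicted gene Gm10222, had 26.8 and 31.99 from 2645 and 5302 tags over local backgrounds of 97.8 and 165 tags. Such tall stacks over a tall background were rare, and the median pair stood at 38 tags over 7.30 in mK3 and 44 tags over 6.22 in mK4. The peak lists were used without a filter for regions prone to mapping artefacts. Whether the tallest stacks lie in such regions, and not in open regulatory DNA, was not tested.

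Across all pairs the strength in one line followed the strength in the other, with a lean towards mK4. Fold enrichment had a median of 4.67 in mK3 and 6.02 in mK4, with 5th to 95th percentiles of 3.01 to 8.73 and 3.45 to 11.1. Spearman's rho over the 12469 pairs was 0.611, a description across sites that share a library. As deposited, 9975 pairs (80.0%) were higher in mK4, by a median log2 ratio of 0.32 (SD 0.42). Tag heights, recovered from the authors' fold enrichment and p-value columns, leaned less: 59.3% were higher in mK4, by a median log2 of 0.14. The background went the other way: its lowest value was 5.83 tags in mK3 and 4.51 in mK4 and 24.2% of mK3 and 23.2% of mK4 peaks sat at it.

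Because fold enrichment is scaled within a library only, each pair is compared with the median pair. Centred in this way, 84.5% of pairs were within 1.5-fold of the median ratio and 97.6% within 2-fold. At least 2-fold stronger in mK4 were 182 pairs (1.46%), and at least 2-fold stronger in mK3 were 121 (0.97%). Of all 2-fold pairs 60.1% were thus on the mK4 side, against 96.9% with the ratio as deposited (728 and 23 pairs). The side that held more of them turned with the direction of pairing: counted from mK4 peaks, 158 were stronger in mK4 and 195 in mK3 (44.8% on the mK4 side). With one-to-one pairs only, 145 and 113 were. Counting alone limits how finely single pairs can be read, since the median counting error of a pair's log2 height ratio was 0.32. Height ratios of 24.8% of pairs lay outside their own 95% counting interval around the median, which covers counting error only and says nothing on the spread between cultures.

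**Figure D2:**
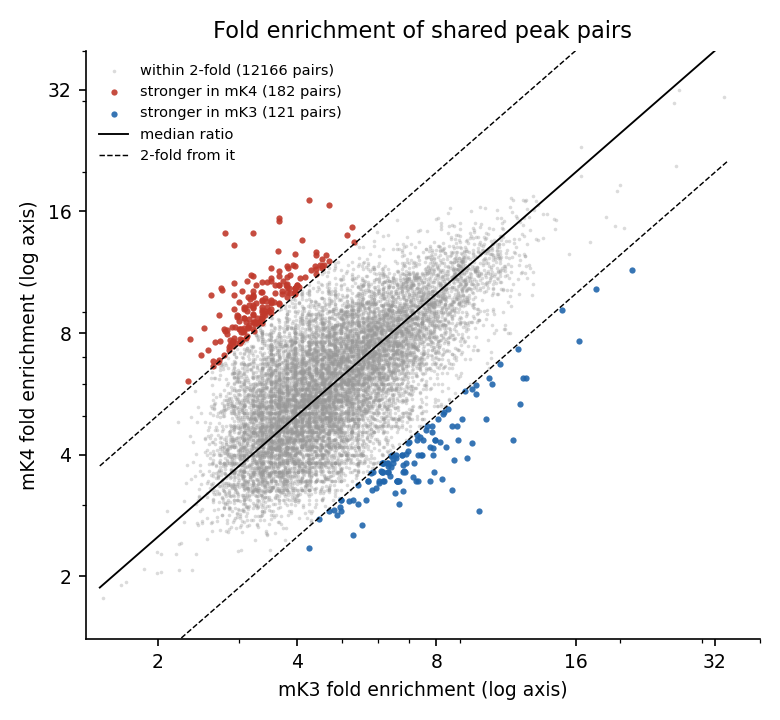
Fold enrichment of each of the 12469 shared pairs in mK3 (horizontal) and mK4 (vertical), both on log axes, with 1 point per pair. The solid line is the median ratio and the dashed lines are 2-fold from it: 182 pairs (red) lie above and 121 (blue) below.

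Pairs that differed were mostly low peaks in the weaker line. In the 182 pairs stronger in mK4 the median fold enrichment was 3.28 in mK3 and 9.51 in mK4, on 25 and 70 tags, and in the 121 stronger in mK3 it was 6.86 and 3.81, on 54 and 22 tags. Within 1 kb of a start were 26.4% and 40.5% of these classes, against 54.1% of the pairs within 2-fold. Read the other way, 0.719% of gene-start pairs were 2-fold stronger in mK4 and 0.734% in mK3, while over 10 kb from a start the shares were 2.60% and 1.65%. The spread of the log2 ratio was 0.38 (SD) at starts and 0.48 over 10 kb away. Distal pairs had slightly fewer tags (medians of 35 and 41 against 43 and 46), and the part of depth in the wider spread was not tested.

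Genes tested in RNA were then followed from start pair to RNA, leaving out non-coding and predicted genes and giving a gene with several start pairs by the one with the highest smaller fold enrichment. On this basis the 10 genes with the highest ratio towards mK4 included Baiap2l1, Hs3st3b1, which encodes a heparan sulfate sulfotransferase, Qars, which encodes the glutaminyl-tRNA synthetase, Vps41, which encodes a subunit of a lysosomal tethering complex, and Zdhhc12, which encodes a protein palmitoyltransferase. Ppcdc, Nanp, Ccdc112, Capn15 and Smim26 completed them. Baiap2l1 (chr5:144358114-144358324) went from a fold enrichment of 2.93 in mK3 to 8.27 in mK4 and from 22 to 264 tags. Its RNA was at 1.91, 3.64 and 3.55 CPM in mK3, against 254, 243 and 231 CPM in mK4, a rise of 6.32 ± 0.30 (log2, SE; adjusted p = 3.98e-05). No library of one line came near those of the other.

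Zdhhc12 (chr2:30093658-30093952) went from 3.01 to 7.72 in fold enrichment and from 27 to 73 tags. Its RNA was low in every library, at 0.946, 0.567 and 0.910 CPM in mK3 and 1.77, 2.33 and 2.40 CPM in mK4, and rose by 1.42 ± 0.32 (log2, SE; adjusted p = 0.0133). The remaining 8 genes of the 10 did not pass the RNA test. Hs3st3b1, with the highest ratio of these 10 (3.22 to 9.90, 21 to 60 tags), was at 1.91, 1.35 and 3.47 CPM in mK3, against 0.659, 0.493 and 3.56 CPM in mK4, so its libraries overlapped (adjusted p = 0.673). Qars went from 3.87 to 11.1 in fold enrichment at 19.6 to 21.4 CPM in mK3 and 19.7 to 20.9 CPM in mK4 (adjusted p = 0.968).

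In the other direction, the 10 lowest ratios on the same basis included Dusp23, which encodes a phosphatase, Pyroxd2, which encodes a mitochondrial oxidoreductase, Kif13a, which encodes a kinesin motor, Serpinb8, Nucks1, which encodes a chromatin-associated phosphoprotein, and the ephrin receptor gene Ephb6. Ctdspl, Cd46 and Tmeff2 were also among them. Serpinb8 (chr1:107589820-107590360) went from 10.3 in mK3 to 4.90 in mK4 and from 79 to 26 tags. Its RNA was at 6.99, 6.59 and 6.93 CPM in mK3, against 0.821, 0.913 and 0.513 CPM in mK4, a log2 change of -3.19 ± 0.27 SE (adjusted p = 0.000288). The 3 mK3 libraries were tightly grouped and all far above mK4.

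Pyroxd2 (chr19:42752398-42753426) went from 6.65 to 3.03 in fold enrichment, from 87 to 28 tags, and its RNA from 4.52, 4.05 and 5.89 CPM in mK3 to 0, 0.151 and 0 CPM in mK4 (log2 fold change -6.536 ± 1.5003 SE, adjusted p = 0.0152). Ephb6 went from 7.86 to 4.15, with RNA of 3.35, 1.37 and 3.398 CPM against 0.264, 0.210 and 0 CPM, a call close to the threshold (adjusted p = 0.0477) that most alternatives did not keep. A pair could also be weaker in mK4 while the RNA was higher. Kif13a went from 5.29 to 2.53 in fold enrichment and from 41 to 14 tags, while its RNA was at 11.3, 13.04 and 13.2 CPM in mK3, against 29.3, 25.4 and 26.1 CPM in mK4, a rise of 1.11 ± 0.12 (log2, SE; adjusted p = 0.000692). Ctdspl, which encodes a small phosphatase, rose too (0.44 ± 0.10 SE, adjusted p = 0.0124). Dusp23, whose pair had the lowest ratio of these (12.1 to 5.35, 122 to 34 tags), was barely detected, at 0.0831 to 0.216 CPM in mK3 and 0 to 0.0513 CPM in mK4 (adjusted p = 0.145). Nucks1, at 144 to 173 CPM in mK3 and 128 to 170 CPM in mK4, did not pass the test (adjusted p = 0.790).

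Start pairs that were not the strongest of their gene could differ as much, and 3 of them were named after their values were seen. At Bmt2 (chr6:13677248-13677535, 431 bases from the start) fold enrichment went from 2.80 to 14.2 and tags from 24 to 154, the highest centred ratio of any start pair (log2 2.02). The same mK4 peak is also the partner of a stronger mK3 peak at Bmt2, with a fold enrichment of 10.3 and 91 tags, and the RNA of Bmt2 did not pass the test (log2 fold change -0.05, adjusted p = 0.764). At Cdkn2a, which encodes cell cycle inhibitors from alternative starts, the pair chr4:89282079-89282614 went from 8.65 to 3.27 and from 67 to 17 tags, the lowest centred ratio of any start pair (-1.73). Its other start pair was within 2-fold (4.71 and 4.30, 38 and 34 tags). RNA of Cdkn2a was at 416, 365 and 447 CPM in mK3, against 144, 134 and 124 CPM in mK4, and it fell (-1.61 ± 0.10 SE, adjusted p = 8.98e-05). At Zfp983, a zinc finger gene, a pair went from 7.74 to 3.45 and from 77 to 18 tags, with a second start pair at 3.95 and 5.27. Its RNA was at 7.04, 7.10 and 4.67 CPM in mK3, against 3.36, 1.54 and 3.20 CPM in mK4, and it fell (-1.22 ± 0.36 SE, adjusted p = 0.0359).

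Over 10 kb from any start, the highest ratio was that of chr6:70872296-70872543. This pair within the span of Eif2ak3, which encodes the endoplasmic reticulum stress kinase PERK, went from 2.93 to 13.2 in fold enrichment and from 19 to 119 tags, which after centring is 5.68-fold (counting interval 3.48 to 9.77). A pair within the span of Mitf, which encodes a basic helix-loop-helix transcription factor, at chr6:97952837-97953119 went from 4.69 to 16.6, and a pair within Vopp1 at chr6:57812417-57812635 from 4.25 to 17.0. A pair at chr2:177073976-177074221 went from 3.66 to 15.2 and a pair at chr17:64480681-64481047 from 2.76 to 10.2, both outside gene spans. Thus 3 of these 5 lie on chromosome 6. Lowest was chr9:115148872-115149627 within Osbpl10, which encodes an oxysterol-binding protein, from 9.92 to 2.91 and from 71 to 15 tags (0.192-fold, interval 0.102 to 0.338). Next came a pair outside gene spans at chr2:22744755-22745009 (11.7 to 4.36) and pairs within Prkar2b (9.32 to 3.93), which encodes a regulatory subunit of protein kinase A, Slc39a11 (8.22 to 3.47), which encodes a zinc transporter, and Fbxw4 (8.75 to 3.88). Which genes such distal sites act on was not tested.

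Large RNA differences also occurred at starts whose pair was within 0.32 (log2) of the median ratio. Vgll3 (chr16:65814857-65815866) had fold enrichments of 5.59 and 7.18 and 77 and 89 tags, a centred tag ratio of 1.05 with a counting interval of 0.764 to 1.44. Its RNA was at 300, 335 and 189 CPM in mK3, against 4.18, 9.01 and 12.3 CPM in mK4 (log2 fold change -5.01 ± 0.48 SE, adjusted p = 0.000497), so every mK3 library was over 10-fold above every mK4 library. The other 4 genes named here for lower RNA follow. Cpa6, which encodes a carboxypeptidase, was at 520 to 529 CPM in mK3 and 15.1 to 22.5 CPM in mK4 with fold enrichments of 3.93 and 4.95. Adamts5, which encodes an aggrecan-cleaving protease, was at 235 to 256 against 8.51 to 12.6 CPM with 5.10 and 6, Inhba, which encodes the activin A subunit, at 46.1 to 53.3 against 2.13 to 4.16 CPM with 5.37 and 5.54, and Pla1a, which encodes a phospholipase, at 69.8 to 95.5 against 2.93 to 9.08 CPM with 3.17 and 3.73. Their adjusted p-values ran from 1.67e-05 (Cpa6) to 0.00104 (Pla1a).

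In the other direction Mylip (chr13:45389425-45390021) had fold enrichments of 6.40 and 8.16 and 58 and 55 tags. Its RNA was at 4.93, 4.81 and 5.25 CPM in mK3, against 59.4, 53.0 and 58.6 CPM in mK4 (3.51 ± 0.10 SE, adjusted p = 9.65e-06). Dock4, which encodes an activator of small GTPases, had 9.29 and 10.3 with RNA of 12.0 to 12.98 CPM in mK3 and 126 to 160 CPM in mK4 (3.55 ± 0.12 SE, adjusted p = 1.46e-05). Cacna1g, which encodes a T-type calcium channel, went from 1.82 to 3.20 CPM in mK3 to 59.1 to 74.9 CPM in mK4 with a pair of 4.25 and 4.69, and Ankrd6, a modulator of Wnt signalling, from 1.84 to 4.03 CPM to 60.2 to 62.5 CPM with 3.62 and 4.18. Tex14, known from germ cell bridges, was at 3.15, 0.151 and 10.5 CPM in mK3, against 104, 132 and 128 CPM in mK4. The mK3 libraries of Tex14 were far apart, and its call (adjusted p = 0.0257) was lost without mK3 library 1 (adjusted p = 0.0906) or without any 1 mK4 library (adjusted p = 0.0555 to 0.0608).

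RNA, which played no part in choosing the pairs, was then set beside them. Of all 20405 tested genes 4237 (20.8%) were higher in mK4 and 3988 (19.5%) lower, with a median log2 fold change of 0.02. Of 6692 genes with a shared start pair 1293 (19.3%) were higher and 1584 (23.7%) lower, with a median of -0.04. Which side held more calls turned with the scaling: with library sizes alone, which moves the median of all genes by 0.11 (log2), 1570 were higher and 1247 lower, so that 55.7% of calls were higher in place of 44.9%. One start pair can serve several genes, as 26.2% of these pairs had starts of 2 or more genes within 1 kb.

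In the 2-fold classes more genes had RNA that moved with the pair than against it. Where the pair was stronger in mK4, 6 of 15 genes (40%) were higher and 1 lower, and where it was stronger in mK3, 21 of 42 (50%) were lower and 7 higher, with median log2 fold changes of 0.38 and -0.59. Among the 6, Baiap2l1 and the non-coding gene Dmrt1i share the same start pair. Where it was within 2-fold, 1280 of 6635 (19.3%) were higher and 1562 (23.5%) lower. Between 1.5-fold and 2-fold the counts were nearly level on the mK4 side, with 57 of 238 higher and 55 lower (median -0.05), while on the mK3 side 69 of 368 were higher and 106 lower (median -0.16). Of genes with a peak listed in 1 line only, 428 of 1216 (35.2%) with only an mK4-only peak at the start were higher, and 254 of 573 (44.3%) with only an mK3-only peak were lower. Across the 6692 genes the centred log2 ratio of the pair and the RNA log2 fold change had a Pearson r of 0.08 and a Spearman rho of 0.05, over genes that share the same libraries.

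Tag heights, which are not divided by the local background, gave larger classes. By heights 481 pairs (3.86%) were at least 2-fold higher in mK4 after centring and 413 (3.31%) at least 2-fold higher in mK3. Of 91 genes with a start pair of the first kind 49 (53.8%) were higher in RNA and 12 lower, and of 168 of the second kind 88 (52.4%) were lower and 17 higher. Between 1.5-fold and 2-fold the shares were intermediate, with 134 of 448 higher and 65 lower on the mK4 side, and 236 of 738 lower and 93 higher on the mK3 side. Within 1.5-fold 1000 of 5247 (19.1%) were higher and 1183 (22.5%) lower. The correlation across the 6692 genes was also larger with heights (Pearson 0.21, Spearman 0.20) than with fold enrichment.

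**Figure D3:**
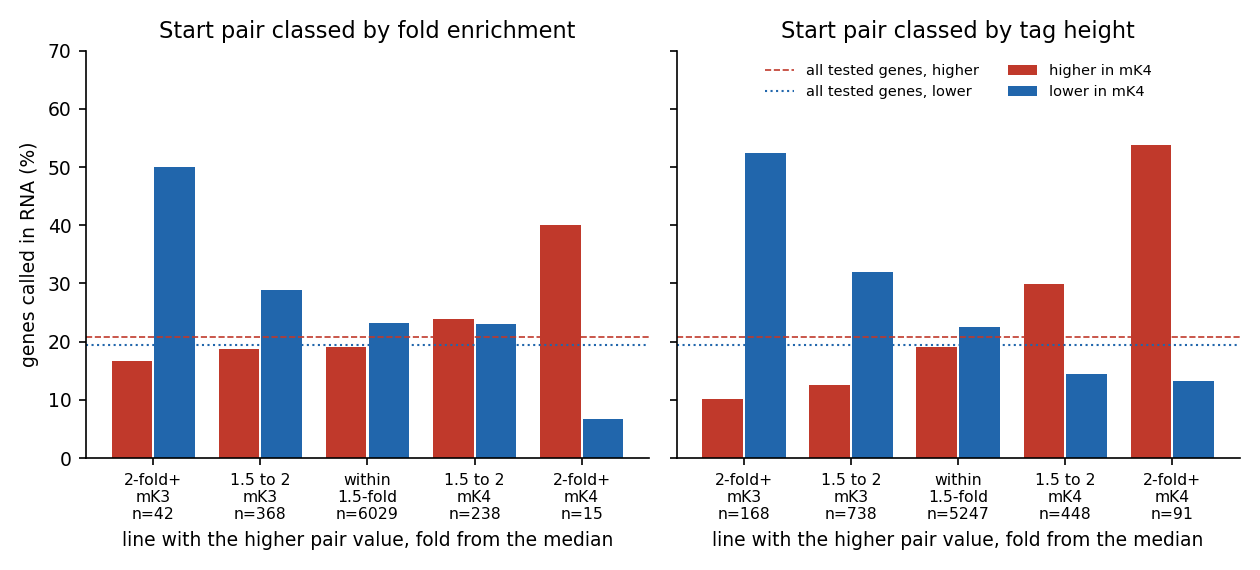
Percent of genes (vertical axis) called higher (red) or lower (blue) in mK4 RNA, by class of their shared start pair (horizontal axis, from at least 2-fold towards mK3 to at least 2-fold towards mK4), with classes from fold enrichment (left) or tag height (right) and n genes under each class. The lines give the shares over all tested genes, 20.8% higher and 19.5% lower, and the outer classes stand off these lines in both panels.

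Height ratios were not scattered evenly along the chromosomes. Neighbouring pairs were more alike in height ratio (Pearson r 0.24 over 12454 neighbour pairs) than in fold enrichment ratio (0.06), and the local background was most alike (0.58). Part of this likeness is built in. Neighbours with the same mK4 partner were kept, so that an mK4 value can stand beside itself. Close neighbours can also share part of a local background, and many peaks sit at its lowest value. Stretches were then sought, by a rule chosen after the heights had been seen: at least 15 consecutive pairs whose running median over 9 pairs was at least 1.5-fold from the median pair in 1 direction. There were 4, holding 175 pairs (1.403%), and by fold enrichment there were 0 under the same rule. The genes named from them were also chosen after their values were seen.

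The clearest stretch spans chr5:138724513-144358324, 5.63 Mb near the far end of chromosome 5. Its 82 pairs had median heights of 49 tags in mK3 and 132.5 in mK4, 2.20-fold after centring, and 81 of the 82 lay above the median pair. The local background moved with them, from a median of 9.88 to 22.1 tags, and fold enrichment hardly did (4.22 and 5.32, centred log2 -0.07), with 1 pair at 2-fold by that measure, the one at Baiap2l1. The step lay between single pairs. On the near side Zfp157 had 70 and 81 tags, and from the next pair, at Zfp68, with 76 and 176 tags, heights were mostly raised. Exceptions included 2 pairs at Fam20c (35 and 47, 51 and 54) and the pair at Fam220a (59 and 81). On the far side Baiap2l1, with 22 and 264 tags, was the last, and the next pair, at Trrap, had 57 and 42.

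RNA of the genes in this stretch was mostly higher in mK4. Of 78 tested genes 59 (75.6%) were higher and 1 lower, with a median log2 fold change of 1.53, while in the rest of chromosome 5, outside its stretches, 154 of 923 were higher and 218 lower. Lmtk2, which encodes a membrane-anchored kinase of endosome traffic, had 55 and 127 tags and RNA of 182, 150 and 150 CPM in mK3 against 740, 716 and 790 CPM in mK4 (2.22 ± 0.10 SE, adjusted p = 3.25e-05). Gna12, which encodes a G protein subunit that signals to RhoA, had 138 and 333 tags at fold enrichments of 10.3 and 12.8 and RNA of 350, 325 and 371 CPM against 923, 853 and 943 CPM (1.38 ± 0.07 SE, adjusted p = 5.37e-05). In both genes every mK4 library was above every mK3 library.

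Pdgfa, a growth factor gene, had 50 and 109 tags and went from 7.68, 4.74 and 6.64 CPM to 62.4, 50.4 and 49.6 CPM (3.09 ± 0.21 SE, adjusted p = 0.000144). The ubiquitin ligase gene Rnf216 had 47 and 101 tags and went from a mean of 150 ± 24.3 CPM (SD, n = 3) to 433 ± 23.9 CPM, and Kdelr2, which encodes a receptor that returns proteins to the endoplasmic reticulum, had 32 and 79 tags and went from 1319 ± 122 to 2267 ± 55.6 CPM. Not every gene moved: Zfand2a, with 55 and 159 tags, was at 21.1 to 26.6 CPM in mK3 and 12.5 to 34.8 CPM in mK4 (adjusted p = 0.963), and Snx8, with 50 and 76 tags, at 14.3 to 21.0 and 16.6 to 24.2 CPM (adjusted p = 0.447).

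**Figure D4:**
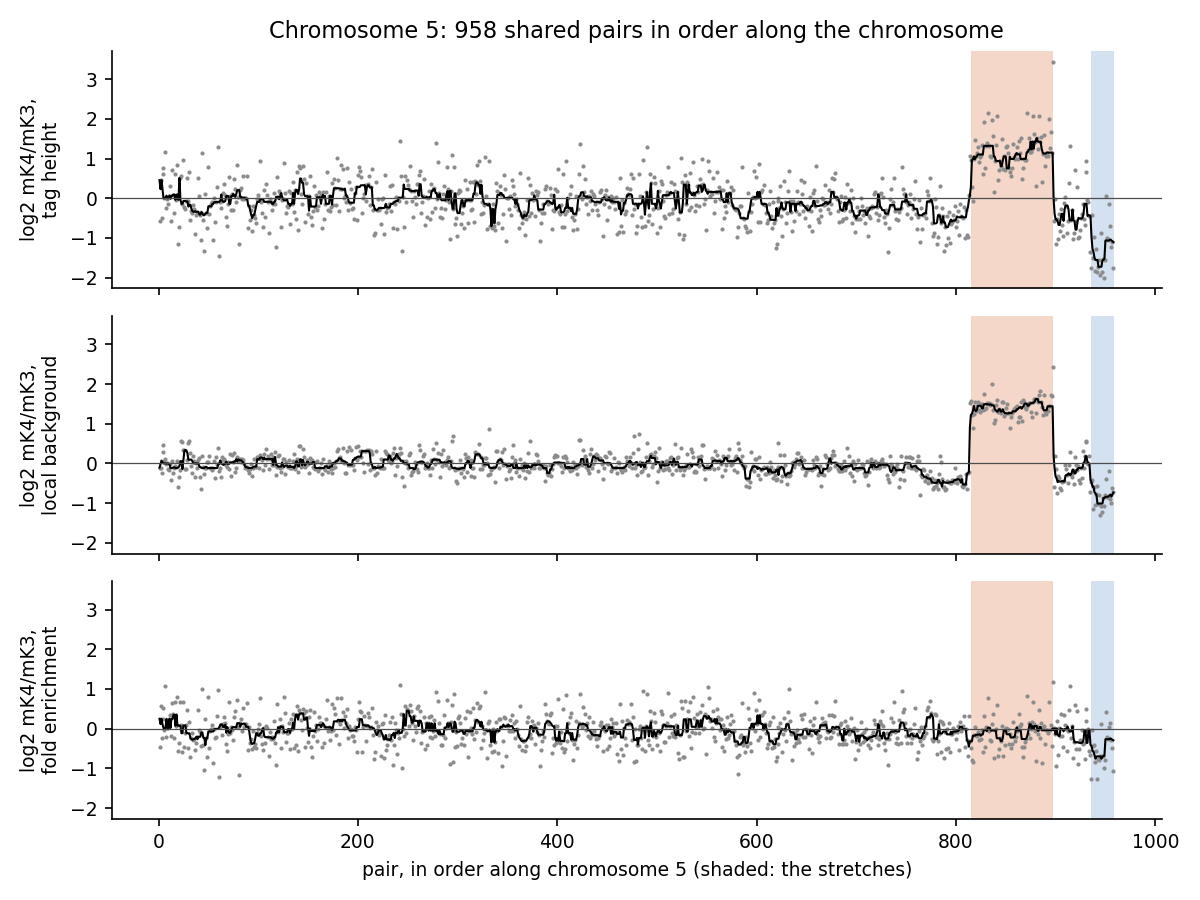
Centred log2 ratio, mK4 over mK3, of tag height (top), local background (middle) and fold enrichment (bottom) for the 958 shared pairs of chromosome 5 in order along it, with 1 point per pair and a running median over 9 pairs (black). In the 82 pairs shaded red height and background step up together, in the 23 shaded blue both step down, and fold enrichment stays near 0 in the first.

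The other stretches leaned to mK3 in height, and their median fold enrichment leaned the same way. The centred log2 medians of fold enrichment were -0.56 for the one on chromosome 5, -0.40 on chromosome 12 and -0.37 on chromosome 4, and in each the median mK4 background was 4.51 tags, the lowest value of that list. At the end of chromosome 5, chr5:148608236-151651418 held 23 pairs with median heights of 64 and 27 tags, 2.83-fold towards mK3, and 14 of its 25 tested genes were lower in mK4 and 1 higher. Pds5b, which encodes a cohesin regulator, had 67 and 25 tags and RNA of 754, 782 and 711 CPM in mK3 against 278, 283 and 242 CPM in mK4 (-1.48 ± 0.08 SE, adjusted p = 5.79e-05). Hsph1, which encodes a heat shock co-chaperone, had 111 and 34 tags and 50.6, 44.0 and 43.4 CPM against 13.1, 13.9 and 12.5 CPM (-1.80 ± 0.10 SE, adjusted p = 7.03e-05). Rfc3, which encodes a subunit of the clamp loader of DNA replication, had 77 and 25 tags and fell (adjusted p = 0.00015), with 30.2 to 33.6 CPM in mK3 and 9.37 to 11.3 CPM in mK4.

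On chromosome 12, chr12:104415567-113012189 held 51 pairs, 1.88-fold towards mK3, and 38 of 84 tested genes were lower and 9 higher. They include Yy1, which encodes a zinc finger transcription factor (98 and 32 tags, log2 fold change -1.20), Eif5, which encodes a translation initiation factor (66 and 37 tags, -1.69), and Rcor1, which encodes a corepressor (87 and 51 tags, -1.17). On chromosome 4, chr4:66828473-83379367 held 19 pairs in 16.6 Mb, 1.85-fold towards mK3, with 7 of 19 genes lower and 0 higher by edgeR and 12 lower by DESeq2. Tle1, which encodes a corepressor, had 92 and 54 tags and 63.7 to 71.6 CPM in mK3 against 22.5 to 24.4 CPM in mK4 (-1.54 ± 0.09 SE, adjusted p = 6.35e-05), and Lurap1l had 47 and 24 tags and 354 to 396 against 31.1 to 47.0 CPM. Outside all 4 stretches the relation of height to RNA was smaller but present in the same direction, with 25 of 61 genes higher (12 lower) and 73 of 146 lower (15 higher) in the 2-fold classes. By fold enrichment the 2-fold classes there held 4 of 13 genes higher (1 lower) and 19 of 40 lower (7 higher). Their median log2 fold changes were 0.23 and -0.49. What the stretches differ in beyond these values was not tested.

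Whole chromosomes differed in the same manner, on a smaller scale. The median centred log2 height ratio ran from -0.31 on chromosome 10 to 0.30 on chromosome 6, while the median fold enrichment ratio stayed between -0.06 and 0.06. Median RNA log2 fold changes were -0.34 on chromosome 10, 0.21 on chromosome 8 (height 0.25), 0.17 on chromosome 19 (height 0.25) and 0.14 on chromosome 6. Over the 15 chromosomes the RNA median and the height median had a Pearson r of 0.89 and a Spearman rho of 0.89, the RNA and background medians 0.91 and 0.90, and the RNA and fold enrichment medians 0.39 and 0.47. These points share the same libraries and are a description.

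**Figure D5:**
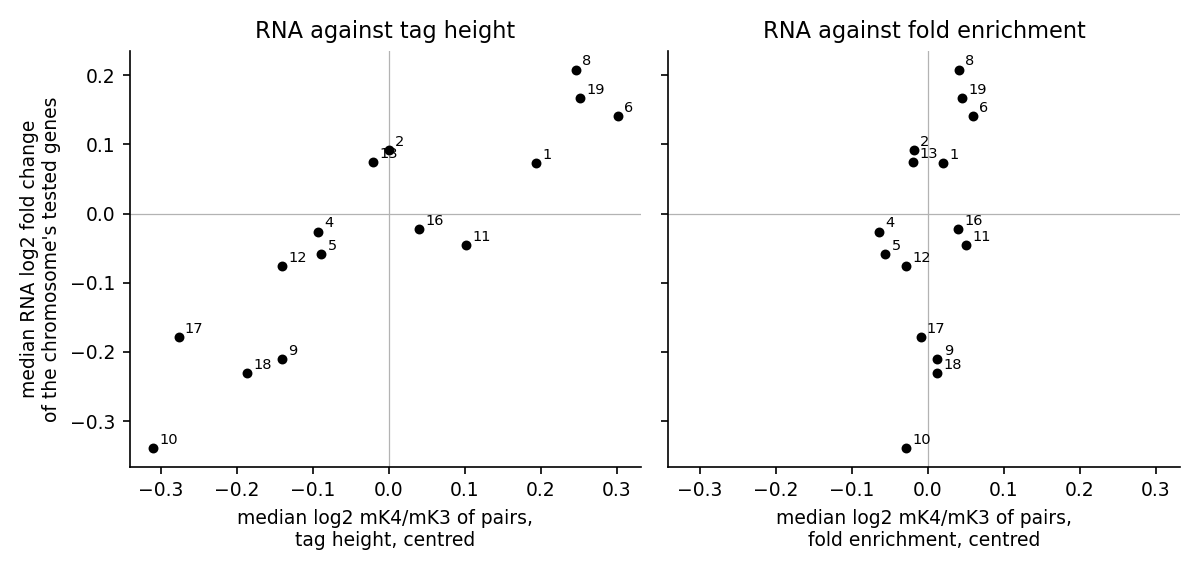
Median RNA log2 fold change of the tested genes of each of the 15 chromosomes (vertical) against the median centred log2 ratio of its shared pairs (horizontal), by tag height (left) and fold enrichment (right), with 1 labelled point per chromosome. By height the points run from chromosome 10 at lower left to chromosomes 6, 8 and 19 at upper right, and by fold enrichment they stand in a narrow column.

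A single place on chromosome 8 had the largest height difference. The pair chr8:123426230-123428562 had 4665 tags in mK3 and 159 in mK4 over backgrounds of 894 and 40.3, and the pair chr8:123433398-123434139 had 2042 and 87, so that fold enrichments were 5.21 and 3.87 for the first. Neighbouring pairs were level, with 39 and 40 tags at Tubb3 and 38 and 42 at Def8. Why these 2 sites stack so many tags in mK3 was not tested.

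Gene lists by function were then followed from pair to RNA. The lists were chosen with earlier results of these data known. Over the 14 lists 167 tested genes had a shared start pair, of which 43 were higher and 57 lower in mK4, and none of their pairs differed 2-fold: centred log2 ratios ran from -0.98 (Junb) to 0.89 (Yap1). The lists are described against the shares over all tested genes, 20.8% higher and 19.5% lower, and their medians against 0.02.

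Cholesterol synthesis genes had the strongest pairs, with medians of 7.28 and 10.1 over 14 genes, and 12 of the 14 were higher in RNA and 1 lower (median 0.81). Besides Hmgcs1, Hsd17b7, which encodes a sterol ketoreductase, had 7.62 and 14.3 with 47.5 to 51.8 CPM in mK3 and 98.8 to 102 CPM in mK4, and Lss, which encodes lanosterol synthase, had 6.88 and 10.7 with 17.6 to 19.3 and 45.3 to 56.6 CPM. Of 10 FGF and ERK response genes 9 were higher and 0 lower (median 1.69). The ERK phosphatase gene Dusp4 rose (1.77 ± 0.23 SE, adjusted p = 0.0017) with a pair of 4.70 and 3.30, and Spry4, which encodes a feedback inhibitor, rose (2.43 ± 0.33 SE, adjusted p = 0.0019) with 4.38 and 6.90.

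Matrix genes went the other way in RNA, with 8 of 9 lower and 0 higher (median -2.05) at pairs of 3.10 and 4.63. Sparc, which encodes a collagen-binding matrix protein, was at 996, 732 and 820 CPM in mK3 and 276, 253 and 280 CPM in mK4 with a pair of 3.01 and 5.33 that leaned to mK4. Thbs1, which encodes thrombospondin, was at 477, 414 and 428 CPM against 77.9, 78.3 and 81.8 CPM with 4.70 and 5.23. In both, the lines' libraries were well apart. Of the mesenchymal transcription factors 5 of 9 were higher and 2 lower. Among them Snai2, a repressor of epithelial genes, fell from 24.98, 20.7 and 20.8 CPM to 0.974, 1.19 and 1.246 CPM (-4.28 ± 0.17 SE, adjusted p = 2.45e-05) while its pair leaned to mK4 (6.27 and 11.1, 47 and 92 tags).

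YAP and TEAD genes were lower in 6 of 8 and higher in 2. Yap1, which encodes the coactivator itself, had the highest centred ratio of all listed genes (4.18 and 9.66) and fell from 127, 109 and 111 CPM to 60.7, 60.9 and 60.5 CPM (-0.93 ± 0.08 SE, adjusted p = 0.000319). Its target Ccn2 had 4.55 and 7.39 and was at 70.5 to 71.6 CPM in mK3 and 6.50 to 7.17 CPM in mK4. Pairs and RNA pointed opposite ways in the AP-1 gene Junb too, at 4.93 and 3.12 with RNA of 28.6, 31.8 and 32.3 CPM against 80.4, 77.4 and 79.4 CPM (1.35 ± 0.08 SE, adjusted p = 7.85e-05). Over the 12 AP-1 and immediate early genes 3 were higher and 5 lower.

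Epithelial genes with a shared start pair numbered 7, of which 3 were higher and 1 lower. Cdh16, which encodes kidney-specific cadherin, had 0 counts in each mK3 library. Its mK4 libraries were at 83.1, 80.5 and 89.1 CPM (adjusted p = 1.78e-05). With a floor of 3 counts per library this is at least 3486-fold higher. A peak 840 bases from its start was nevertheless present in mK3, with 49 tags against 73 in mK4 and fold enrichments of 5.76 and 8.67. Pard6b, which encodes a polarity protein, rose (2.41 ± 0.32 SE, adjusted p = 0.00174) with 5.44 and 5.23, and F11r, which encodes junctional adhesion molecule A, fell (-1.44 ± 0.12 SE, adjusted p = 0.000237) with 5.25 and 7.60.

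Of 6 nephron regulators 1, the stromal gene Foxd1, was higher and 0 lower. Gata3, which encodes a transcription factor of the ureteric lineage, had 6.53 and 10.9, at 1.68 to 4.84 CPM in mK3 and 2.44 to 2.53 CPM in mK4 (adjusted p = 0.334). Hoxa11, a posterior homeobox gene needed for kidney formation, had fold enrichments of 2.22 and 4.82 on 519 and 523 tags, and its RNA libraries disagreed within each line, at 53.2, 449 and 51.9 CPM in mK3 and 4.64, 5.25 and 49.1 CPM in mK4 (adjusted p = 0.111). Interferon response genes were lower in 11 of 16 and higher in 1. RNA polymerase II and mediator genes were lower in 7 of 17 and higher in 0, CTCF, cohesin and remodelling genes higher in 2 of 12 and lower in 4, contractile genes higher in 1 of 7 and lower in 4, and Hedgehog, Notch and Wnt genes higher in 2 of 12 and lower in 4. Cytosolic ribosomal protein genes were higher in 2 of 28 and lower in 4, with pairs at medians of 4.82 and 5.24. They have many near-identical copies in the genome, so their counts are uncertain.

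Promoter letters differed with the strength that the lines share. Of 24675 RefSeq promoters of 300 bases (250 before and 50 after the start) 37.3% hold a CCAAT box, 36.6% a GC box, 13.3% a TATA box and 9.37% an ETS match. Of the 7013 with a shared pair 41.9%, 69.1%, 6.02% and 20.3% do, and their median G+C is 62.3% against 53.3%. When these were split in 5 by the smaller of the 2 fold enrichments, CCAAT boxes were in 28.5%, 31.4%, 41.0%, 45.8% and 62.7% from the weakest part to the strongest. The share with 2 or more went from 6.58% to 37.5%, as in Hmgcs1 and Sel1l above, and boxes that start in the second 50-base window before the gene start went from 8.91% to 33.4%. ETS matches stayed between 19.1% and 21.7% over the 5 parts, median G+C between 62.0% and 62.7%, and GC boxes between 64.2% and 73.5%. The CCAAT box is bound by the factor NF-Y, whose binding was not measured here. Promoters of pairs 2-fold stronger in one line were too few to describe by share, with 17 for mK4 and 45 for mK3.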

How the data were processed

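The deposited data were an RNA table of whole-number read counts per gene (3 libraries a line) and 1 ATAC-seq peak list a line. The submitters' processing notes name mm10 and the tools MACS3, Bowtie2, deepTools, bedtools, SAMtools, HTSeq 2.0.2 and STAR 2.7.10a. For peak-calling settings: not given in the sources used here. Each peak carries the authors' fold enrichment, a ratio of height to local background with 1 added to both, and the authors' -log10 p and -log10 q. From the first 2 a whole number of tags at the summit and its background were recovered. It returned the deposited -log10 p within 0.001 for 22515 of 22516 mK3 and 34756 of 34756 mK4 peaks, and rests on that formula of the peak caller. What a tag stands for and whether duplicates were kept are unstated.

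Pairs were formed with pandas 2.3.3 and NumPy 2.4.6 (Python 3.11.15). Log2 ratios were centred on the median pair. Counting intervals printed for single pairs are exact (SciPy 1.17.1) at 95%. The counts of pairs outside their 95% counting interval use a normal approximation on the log2 scale. Starts came from the RefSeq promoter table (GRCm38.p6) and, for genes it lacks, from both ends of the RefSeq gene, and 82.8% of tested genes matched. RNA was fitted over all 20405 genes that passed filterByExpr with edgeR 4.0.16 in R 4.3.3 (TMM, robust quasi-likelihood test, Benjamini-Hochberg), with calls at an adjusted p under 0.05. CPM are TMM-scaled. In simulated data for mK4 against mK3 on 20405 genes, 100 genes were changed 2-fold and 100 were changed 4-fold. Of these, 37% and 68% were recovered, with 6 false calls. The real libraries gave 4237 calls higher and 3988 lower, far more than were changed in the simulation, so these rates need not carry over.

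Named genes followed a rule: the 5 start pairs with the highest smaller fold enrichment, predicted genes left out, an exclusion that the written rule does not give for these 5; the 10 highest and 10 lowest centred ratios at starts of tested protein-coding genes without predicted ones, each gene by its start pair with the highest smaller fold enrichment; up to 2 members of each list and direction farthest from 0; the 5 largest RNA changes per direction at pairs within 0.32 (log2) of the median, where libraries did not overlap and the mean log2 CPM reached 3; and the 5 highest and 5 lowest ratios over 10 kb from a start. A few genes that the rule names are not reported here. The members, lists and rules were chosen with earlier results of these data known. Alternatives covered pairing, centring, thresholds, windows, scaling, filters, DESeq2 1.42.0, a replicate block and leaving out each library.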

Additional observations from a re-analysis of the deposited data

How the results depend on the processing

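The number of pairs ran from 10219 to 12562 over the alternatives. Pairs 2-fold stronger in mK4 (182) and in mK3 (121) numbered 86 and 78 with an overlap of 50% of both peaks, 94 and 74 with a -log10 q of at least 5 in both lines, 728 and 23 with the ratio as deposited, 1735 and 1682 with -log10 q in place of fold enrichment, 1052 and 881 at 1.5-fold, and 481 and 413 with tag heights. Counted from mK4 peaks, 158 were stronger in mK4 and 195 in mK3, so the lean turned. All 182 and 121 lay outside their counting interval, but the same tags enter the ratio that chose them, so this is not a separate check. With classes from the ratio as deposited, 39 of 153 genes of the mK4 class were higher and 3 of 8 of the mK3 class lower, and with classes from heights 49 of 91 and 88 of 168. There were 9 stretches when 10 pairs sufficed, and with fold enrichment 0, or 1 when 10 pairs sufficed, and DESeq2 called 12 genes lower in the chromosome 4 stretch in place of 7. The choice of heights, and every alternative for stretches, was made after seeing the data.

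Leaving out 1 RNA library gave 983 to 1122 genes with a start pair higher and 1284 to 1433 lower, 4 to 6 higher in the mK4 class, 16 to 19 lower in the mK3 class, 54 to 58 higher in the first chromosome 5 stretch, 12 to 14 lower in the second, 26 to 32 lower on chromosome 12, 7 to 9 lower on chromosome 4, and 38 to 40 higher and 52 to 59 lower among listed genes. Of 51 named genes with an RNA test none reversed, and 4 of 34 calls were lost under some alternative: Ephb6, Tex14, Ctdspl and Zdhhc12. With the replicate block 1004 genes with a start pair were higher and 1291 lower. Same-numbered libraries deviated together with r of -0.02, 0.02 and 0.01, so the numbers give no sign of pairing, and the adjusted p was 0.124 for Ephb6, 0.0553 for Tex14, 0.0535 for Ctdspl and 0.0535 for Zdhhc12 under the block. With 1 ATAC-seq library a line, the spread between cultures is unknown for every pair, and tags per pair limit what a ratio can show.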
